A study of Mus musculus with 10 samples.

Results

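RNA of macrophages and other antigen-presenting cells was followed in T cells sorted from mouse mammary tumours, through 35 genes chosen by name among the 17363 named genes of the series. They comprised 24 macrophage genes, led by Lyz2, Csf1r and the C1q genes, and 11 genes of MHC class II presentation or of dendritic cells, led by Cd74, H2-Aa and H2-Ab1. All 35 were in the table, and all 35 passed the filter, for which 2 of the 8 replicates had to reach 10 normalized counts. Some, such as Mrc1, Flt3 and Clec9a, passed it only through the libraries in which they were high.

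The cells were CD4+CD25- T cells from breast tumours of 23-week-old C57BL/6 mice, and every mouse carried the tumour-forming PyMT transgene and floxed Tgfbr2, the gene of a TGF-beta receptor subunit. WT was Tgfbr2fl/flPyMT with no Cre. KO was ThPOKCreTgfbr2fl/flPyMT, in which the ThPOK-Cre transgene, active in the CD4 T cell lineage, deletes Tgfbr2. The Il4-/- genotype was Il4-/-Tgfbr2fl/flPyMT, and Il4-/-KO was Il4-/-ThPOKCreTgfbr2fl/flPyMT, which carries both defects. Each genotype had 2 replicates, and the RNA of each KO replicate was made into a library on 2 occasions (first and repeat), which gave 10 libraries. Nothing in the labels says that the replicates were different mice. The p-values therefore cover only how far these samples lie apart, possibly for technical reasons.

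Macrophages engulf cells and debris. They carry the CSF-1 receptor, make complement C1q and lysozyme, and sense antibody through Fc receptors that signal by way of small adaptor proteins. Antigen-presenting cells display peptides to CD4 T cells on MHC class II molecules, whose genes are switched on together by the coactivator CIITA. Mouse T cells, unlike human ones, generally do not transcribe class II genes. In bulk libraries, fewer cells of a type and less RNA per cell cannot be told apart.

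Levels were given as normalized counts, which are reads divided by 1 size factor per library. Depth was 17121030 to 18479090 reads in the 2 WT and the 2 first KO libraries and 28003231 to 33802781 in the other 6, so 1 read was worth 0.644 to 1.47 normalized counts. Where no read was counted, the count is compatible with up to 3, worth 1.93 to 4.41 normalized counts depending on the library (counting error only). Of the genes that define the labelled cells, Cd3e, a chain of the T cell receptor complex, had 13302 to 33606 normalized counts in the 10 libraries and Cd4 had 12165 to 40172.

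The members' RNA was present in every library and was concentrated in 1 of them. Il4-/- replicate 2 held the highest value of 31 of the 35 members, among them 24 of 24 macrophage members and 7 of 11 class II and dendritic members. Over all genes tested, that library was highest for 10.4%. The members made up 1.12% of all normalized counts there and 0.114% to 0.344% in the other 9 libraries. At the other end, WT replicate 1 held the lowest value, alone or tied, of 19 of the 35 members, against 10.5% of all genes tested. For 3 of these members (Mrc1, Flt3 and Clec9a) that value was a 0 shared with other libraries.

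**Figure D1:**
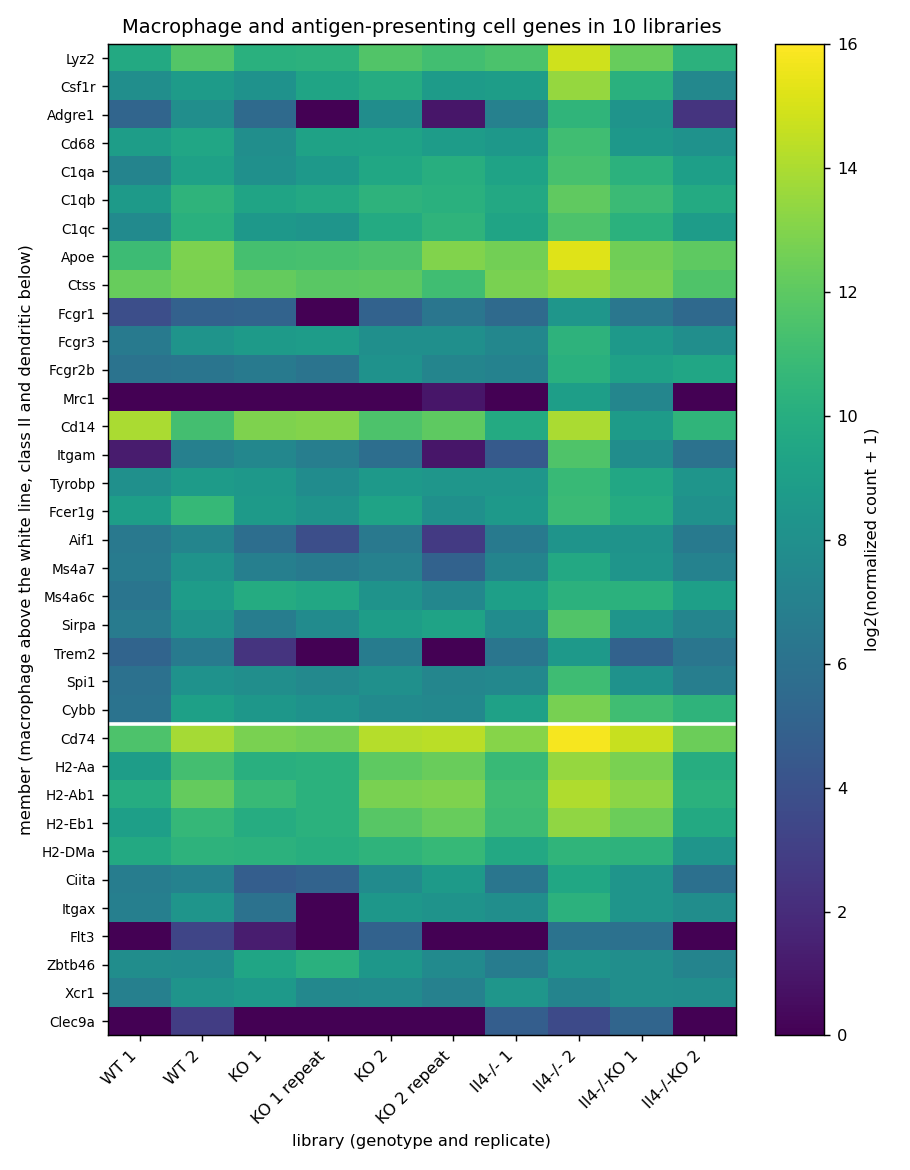
Each row is a member and each column a library, coloured by log2(normalized count + 1), with the 24 macrophage members above the white line and the 11 class II and dendritic members below it. The column of Il4-/- replicate 2 holds the highest value in 31 of the 35 rows.

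Summed over the 24 macrophage members, the level was 26954 and 29238 (normalized counts) in WT and 21001 to 23231 in the 4 KO libraries. It was 22976 and 144822 in Il4-/-, and 32128 and 16303 in Il4-/-KO. Thus 9 of the 10 libraries lay between 16303 and 32128. Cd14 made up much of the sum in some of them: without it (chosen after seeing the data) the sums were 10733 and 26842 in WT, 13230 to 19091 in KO, 22087 and 128567 in Il4-/-, and 31682 and 14900 in Il4-/-KO. The 11 class II and dendritic members were spread more widely. Their sum was 6289.9 and 26037 in WT, 13316 and 12119.9 for KO replicate 1 (first and repeat), and 36937 and 41416 for KO replicate 2. In Il4-/- it was 16169 and 99716, and in Il4-/-KO 49666 and 9388. The higher replicate of each genotype (26037 or more) thus exceeded the lower replicate of every genotype (16169 or less). In every library most of this sum came from Cd74, H2-Aa, H2-Ab1 and H2-Eb1, so it says little about the dendritic members.

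Other cell types also differed between libraries. The sum of 15 core T cell genes was 148164 and 250739 in WT, 260572 to 302312 in KO, 243489 and 152409 in Il4-/-, and 230994 and 234526 in Il4-/-KO. The library with the most member RNA, Il4-/- replicate 2, thus had the second lowest T cell sum. The sum of 16 mammary and tumour epithelium genes ran from 31119.6 to 242388 in WT, 80091 to 152336 in KO, 41433 to 103557 in Il4-/- and 16038 to 52367 in Il4-/-KO. Its highest value was in WT replicate 1, where most members were low. The 10 neutrophil genes summed to 1039 to 41035 in WT, 4709 to 9034 in KO, 1422 to 9549.6 in Il4-/- and 251 to 5143 in Il4-/-KO. One of them, Ltf, which encodes lactoferrin, supplied 40465 of the highest sum, in WT replicate 1. Without Ltf (chosen after seeing the data) the other 9 neutrophil genes summed to 6247 and 6989 in the first and repeat library of KO replicate 1 and to 109 to 1004 in the other 8 libraries, among them 570.4 in WT replicate 1. The 9 B cell and plasma cell genes in the table, a lineage that also transcribes class II genes, stayed between 125 and 3207 in every library. The highest sums came mostly from the plasma cell gene Jchain. Without it (chosen after seeing the data) the other 8 summed to 247 in Il4-/- replicate 2, the library with the most class II RNA, and to 94.8 to 496 over the 10 libraries. Whether these other cells have a part in the members' differences was not tested.

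**Figure D2:**
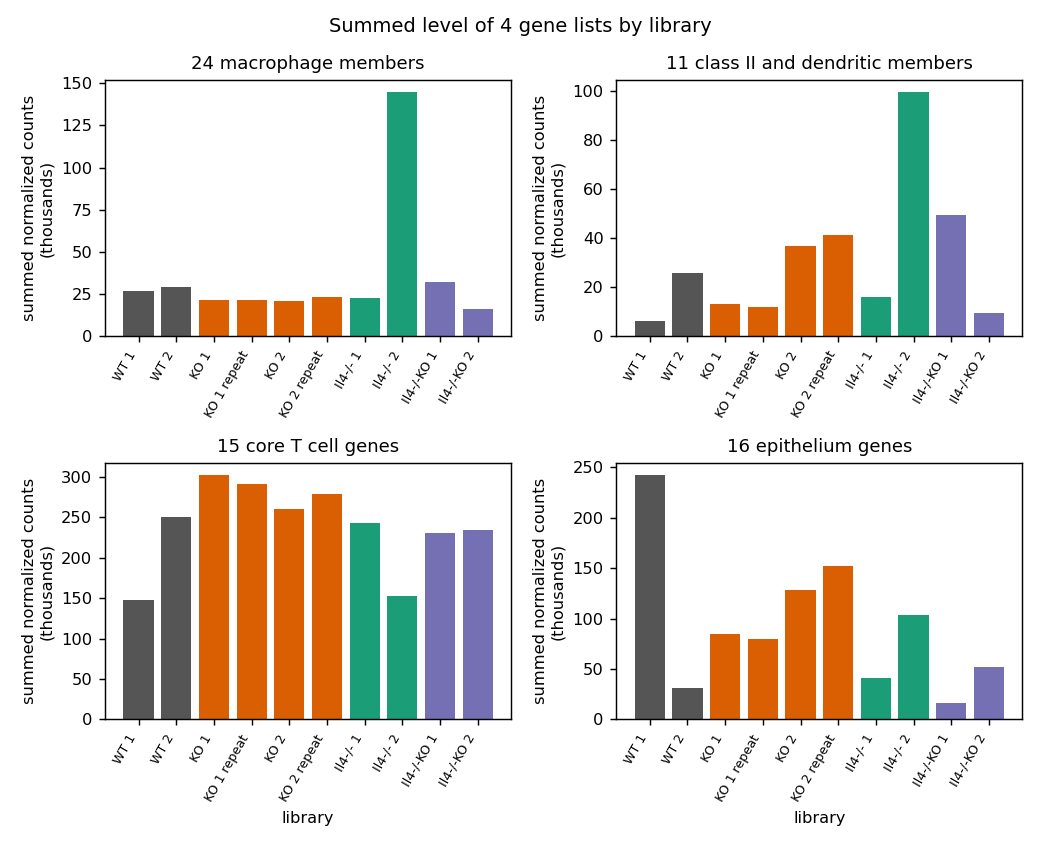
Bars give the summed normalized counts (axis from 0) of 4 gene lists in each of the 10 libraries, coloured by genotype. The macrophage sum of Il4-/- replicate 2 reaches 144822 against at most 32128 elsewhere, while core T cell genes run from 148164 to 302312.

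Among the genes that define the macrophage lineage, Lyz2, the lysozyme of myeloid cells, stood at 856 and 3429 normalized counts in the WT replicates, 1145 (first) and 1242 (repeat) in KO replicate 1, 3244 and 2313 in KO replicate 2, 2867 and 28932 in Il4-/-, and 4934 and 1267 in Il4-/-KO. Il4-/- replicate 2 lay 5.86-fold above the next library, and the other genotypes overlapped. Lyz2 shares 15.4% of its 50-base stretches with Lyz1, the intestinal lysozyme gene, which had 0 to 149.7. Csf1r, the receptor for the macrophage growth factor CSF-1, had 237 and 442 in WT, 287 and 661 in KO replicate 1, 973 and 434 in KO replicate 2, 483 and 11503 in Il4-/-, and 1149 and 177 in Il4-/-KO. Only the Il4-/- libraries were both above WT, the first of them by a small margin. Adgre1, which encodes F4/80, had 35.6 and 243 in WT, 45.6 and 0 in KO replicate 1, 229 and 0.946 in KO replicate 2, 128 and 1426 in Il4-/-, and 304 and 4.33 in Il4-/-KO. Its first KO libraries held reads that the repeats from the same RNA lacked, so within KO it ran from 0 to 229. Spi1, the gene of the myeloid transcription factor PU.1, had 60.6 and 289 in WT, 234 and 188 in KO replicate 1, 261 and 163 in KO replicate 2, 179.8 and 2070.3 in Il4-/-, and 282 and 114 in Il4-/-KO. Apart from the highest library, all its values lay between 60.6 and 289, with every genotype overlapping.

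The complement genes C1qa, C1qb and C1qc encode the 3 chains of C1q and lie side by side on chromosome 4, between 136880129 and 136898803 (mm10). C1qa had 148 and 564 in WT, 257 and 406 in KO replicate 1, 739 and 1041 in KO replicate 2, 619 and 2565 in Il4-/-, and 1266 and 531 in Il4-/-KO. Both Il4-/- libraries were above both WT libraries. C1qb had 419 and 1329 in WT, 651 and 792 in KO replicate 1, 1294 and 1149 in KO replicate 2, 823 and 4455 in Il4-/-, and 1892 and 866 in Il4-/-KO. C1qc had 199 and 1133 in WT, 363 and 328 in KO replicate 1, 867 and 1352 in KO replicate 2, 651 and 3022 in Il4-/-, and 1170.0 and 453 in Il4-/-KO. All 3 were lowest in WT replicate 1 and highest in Il4-/- replicate 2.

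The stretches upstream of the C1qb and C1qc start sites are shown because the ratio of these neighbours varied less across libraries than either gene did. They were taken from RefSeq (GRCm38.p6), the 150 bases before the start for C1qb (chr4:136886201-136886350, minus strand) and the 200 bases before it for C1qc (chr4:136892915-136893114, minus strand), 5′ to 3′ on the gene's strand. Capitals mark GAGGAA, a short core of the DNA sequence that PU.1 is known to bind, or its reverse complement.
C1qb: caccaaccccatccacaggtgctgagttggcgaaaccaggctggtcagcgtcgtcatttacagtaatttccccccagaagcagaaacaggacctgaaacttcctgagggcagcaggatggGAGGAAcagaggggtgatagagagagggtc
C1qc: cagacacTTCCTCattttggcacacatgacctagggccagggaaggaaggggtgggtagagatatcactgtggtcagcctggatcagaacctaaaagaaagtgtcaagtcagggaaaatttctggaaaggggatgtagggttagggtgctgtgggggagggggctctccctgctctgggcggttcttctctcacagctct
The match begins 30 bases before the RefSeq start of C1qb and 193 bases before that of C1qc. The annotation that gave the gene positions above (GENCODE) places the start of C1qc further upstream, at 136893065. Most of the C1qc stretch thus lies inside that gene span, while the match lies upstream of it. Searched on both strands in the 250 bases upstream, GAGGAA occurred in 23.3% of all 32851 promoters and in those of 11 of the 25 members that had an entry: Aif1, Apoe, C1qb, C1qc, Cd68, Ctss, Fcgr1, Fcgr3, Itgam, Mrc1 and Trem2. The longer GAGGAAGT, which contains GAGGAA, occurred in 2.44% of all promoters and, among these members, in that of C1qc. A match describes letters and does not show binding.

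Among the receptors for antibody, Fcgr1, the high-affinity receptor, had 13.2 and 30.4 in WT, 33.8 and 0 in KO replicate 1, 31.5 and 77.6 in KO replicate 2, 44.6 and 339 in Il4-/-, and 81.7 and 44.0 in Il4-/-KO. Fcgr3, an activating receptor of lower affinity, had 89.6 and 317 in WT, 426 and 459 in KO replicate 1, 255 and 245 in KO replicate 2, 165 and 1307 in Il4-/-, and 385 and 243 in Il4-/-KO. Every genotype overlapped WT for Fcgr3. Fcgr2b, the inhibitory receptor, had 65.9 and 72.6 in WT, 89.7 and 70.5 in KO replicate 1, 279.7 and 157 in KO replicate 2, 133 and 1121 in Il4-/-, and 579 and 700.4 in Il4-/-KO. Both Il4-/- libraries exceeded both WT libraries, and both Il4-/-KO libraries exceeded all 4 KO libraries. Fcgr3 and Fcgr2b share sequence: 9.58% of the 50-base stretches of Fcgr3 also occur in Fcgr2b, so reads there could be assigned to either.

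The adaptors through which such receptors signal varied less. Tyrobp, which encodes DAP12, had 266 and 445 in WT, 366 and 223 in KO replicate 1, 385 and 345 in KO replicate 2, 345 and 1744 in Il4-/-, and 758 and 322 in Il4-/-KO. Fcer1g, the common Fc receptor gamma chain, had 490.0 and 1681 in WT, 429 and 293 in KO replicate 1, 619.8 and 259 in KO replicate 2, 377 and 1928 in Il4-/-, and 936 and 277 in Il4-/-KO. WT replicate 2 nearly reached the highest library for Fcer1g. Trem2, a lipid-sensing receptor that pairs with DAP12, had 34.2 and 89.8 in WT, 4.41 and 0 in KO replicate 1, 106 and 0 in KO replicate 2, 77.8 and 379 in Il4-/-, and 31.2 and 76.5 in Il4-/-KO. In KO it was at or under the limit of 3 reads in 3 of the 4 libraries but not in the first library of KO replicate 2. Sirpa, the inhibitory receptor for CD47, had 100.1 and 298 in WT, 110.3 and 212 in KO replicate 1, 478 and 619 in KO replicate 2, 222 and 3205 in Il4-/-, and 326 and 156 in Il4-/-KO. Its highest library was 5.18-fold above the next.

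Of the lysosomal and lipid-handling members, Apoe, which encodes apolipoprotein E, had 1976 and 7198 in WT, 2435 and 2642 in KO replicate 1, 2979.7 and 7960.0 in KO replicate 2, 6125 and 38435 in Il4-/-, and 6029.9 and 4120.2 in Il4-/-KO. Ctss, the protease cathepsin S that trims the invariant chain, had 4942 and 7001 in WT, 4863 and 3859.9 in KO replicate 1, 3930.5 and 2138 in KO replicate 2, 7138 and 11414 in Il4-/-, and 6747 and 3073 in Il4-/-KO. It was the one member for which all 4 KO libraries lay below both WT libraries, and both Il4-/- libraries lay above them. Cd68, a lysosomal glycoprotein, had 470.3 and 705 in WT, 239.6 and 587 in KO replicate 1, 608 and 456 in KO replicate 2, 361 and 2138 in Il4-/-, and 374 and 284 in Il4-/-KO. Cybb, the membrane subunit of the phagocyte NADPH oxidase, had 67.2 and 545 in WT, 347 and 289.6 in KO replicate 1, 205 and 175 in KO replicate 2, 566 and 6596 in Il4-/-, and 2225 and 1376 in Il4-/-KO. The libraries without Il4 were all above those with it for Cybb, though the lowest of them (566) only just exceeded the highest of the others (545). How many of all genes had this order was not counted.

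Surface and cytoplasmic markers completed the macrophage members. Aif1, which encodes the actin-binding protein IBA1, had 88.3 and 156 in WT, 52.9 and 13.6 in KO replicate 1, 89.3 and 5.67 in KO replicate 2, 91.5 and 305 in Il4-/-, and 303 and 96.0 in Il4-/-KO. Ms4a7 had 101 and 293 in WT, 118 and 90.0 in KO replicate 1, 127 and 31.2 in KO replicate 2, 151 and 806 in Il4-/-, and 319 and 138 in Il4-/-KO. For both genes, the Il4-/-KO libraries lay above all KO libraries, and the repeat library of KO replicate 2 was lowest of all. Ms4a6c had 72.4 and 457 in WT, 898 and 761 in KO replicate 1, 294 and 168 in KO replicate 2, 517 and 1266 in Il4-/-, and 1201 and 516 in Il4-/-KO. It shares exonic bases with the antisense gene BE692007 (53.1% of its exonic length) and 50-base stretches with its neighbours (10.5%), of which Ms4a6b, also expressed by T cells, had 5003 to 27351. Itgam, the CD11b integrin chain, had 1.32 and 124 in WT, 172 and 112 in KO replicate 1, 55.2 and 0.946 in KO replicate 2, 21.9 and 3120.3 in Il4-/-, and 226 and 65.0 in Il4-/-KO. It showed the widest gap between the highest library and the next, 13.8-fold, but 66.3% of its 50-base stretches also occur in the overlapping model Gm49368, not analysed here.

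Cd14 and Mrc1 stood apart from the other macrophage members. Cd14, the co-receptor for bacterial lipopolysaccharide, had 16221 and 2396 in WT, 7809.6 and 8432 in KO replicate 1, 2951 and 4139.8 in KO replicate 2, 889 and 16255 in Il4-/-, and 446 and 1403 in Il4-/-KO. WT replicate 1, the lowest library for most members, nearly equalled the highest for Cd14. That library also had the highest epithelium sum (242388) and the highest Ltf (40465), and their part in the Cd14 value was not tested. The other 9 neutrophil genes were highest in KO replicate 1. Mrc1, the mannose receptor CD206 that macrophages raise in response to IL-4, had 489.6 in Il4-/- replicate 2 and 163 in Il4-/-KO replicate 1. It had 1 read in the repeat library of KO replicate 2, worth 0.946, and was at 0 in the other 7 libraries. Its reads thus came almost entirely from 2 libraries of mice without Il4.

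The MHC class II members were high and low in the same libraries. Cd74, the invariant chain that guides class II molecules to the compartment where they are loaded, had 2916 and 14817 in WT, 7023 and 6143 in KO replicate 1, 19346 and 20819 in KO replicate 2, 8703 and 56413 in Il4-/-, and 25299 and 5403 in Il4-/-KO. H2-Ab1, the beta chain of I-A, had 959 and 4852 in WT, 1780.4 and 1214 in KO replicate 1, 7081 and 7775 in KO replicate 2, 2151 and 17709 in Il4-/-, and 9372 and 1170.5 in Il4-/-KO. H2-Aa, the alpha chain of I-A, had 477 and 2412 in WT, 1095 and 1173 in KO replicate 1, 4231 and 5164 in KO replicate 2, 1767 and 11399 in Il4-/-, and 6974 and 990.0 in Il4-/-KO. For all 3 genes, 1 replicate of each genotype was several times the other, and the 2 libraries of a KO replicate stayed close. H2-Eb1, which encodes a class II beta chain of the I-E isotype, had 533 and 1644 in WT, 973 and 1183 in KO replicate 1, 3755 and 4928 in KO replicate 2, 1976 and 10276 in Il4-/-, and 5493 and 836 in Il4-/-KO. Its replicates were split in the same way, but Il4-/- replicate 1 lay above WT replicate 2. C57BL/6 mice lack a working gene for the I-E alpha chain, so they transcribe H2-Eb1 without displaying I-E. Ciita, whose product switches these genes on, had 108 and 135 in WT, 26.5 and 33.1 in KO replicate 1, 209 and 425 in KO replicate 2, 77.8 and 728 in Il4-/-, and 318 and 57.8 in Il4-/-KO. Ciita too was high in KO replicate 2, Il4-/- replicate 2 and Il4-/-KO replicate 1, the libraries with the most Cd74.

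H2-DMa, a chain of the molecule that edits the peptides on class II, had 829 and 1300.4 in WT, 1266 and 1053 in KO replicate 1, 1372 and 1672 in KO replicate 2, 789.8 and 1397 in Il4-/-, and 1304 and 324 in Il4-/-KO. Its highest library was the repeat of KO replicate 2, and 9 of its 10 values lay within 789.8 to 1672. Between replicates (replicate 2 minus replicate 1, log2 scale) it moved the same way as Cd74 in every genotype but by less: 0.65 against 2.34 in WT, 0.39 against 1.61 in KO, 0.82 against 2.70 in Il4-/-, and -2.01 against -2.23 in Il4-/-KO. Its exons overlap those of Brd2 on the other strand over 10.4% of their length, and whether strand was used in counting is not given in the sources used here.

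H2-Aa and H2-Eb1 lie close together on chromosome 17 (mm10), H2-Aa from 34282744 to 34287823 on the minus strand and H2-Eb1 from 34305867 to 34316674 on the plus strand. The 150 bases upstream of each start are shown because class II promoters are known for an X and a Y box that are read together. They were taken from RefSeq (GRCm38.p6), for H2-Aa at chr17:34287824-34287973, minus strand, and for H2-Eb1 at chr17:34305717-34305866, plus strand. Capitals mark ATTGG or its reverse complement, the core of the Y box, and in H2-Eb1 also a form of the X box (AGCAAC, 3 bases of any kind, then TG).
H2-Aa: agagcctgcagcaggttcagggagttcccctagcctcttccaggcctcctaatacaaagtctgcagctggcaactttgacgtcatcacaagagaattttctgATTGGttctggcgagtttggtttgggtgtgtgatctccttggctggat
H2-Eb1: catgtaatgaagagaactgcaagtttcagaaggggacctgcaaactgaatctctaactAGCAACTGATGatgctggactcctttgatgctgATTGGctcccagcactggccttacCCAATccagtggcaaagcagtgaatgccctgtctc
ATTGG begins 48 bases before the start of H2-Aa and 59 bases before that of H2-Eb1, where its reverse complement follows at 35 bases. The X box form begins 92 bases before the start of H2-Eb1. On both strands of the 250 bases upstream, ATTGG occurred in 33.8% of all promoters and in those of 9 of the 25 members with an entry. The X box form occurred in 0.828% of all promoters and, among these members, in that of H2-Eb1, while its first part AGCAAC occurred in 12.2% and in 5 members.

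Dendritic cell members were lower and did not all follow the same order. Itgax and Flt3 were higher in the same replicate of each genotype as Cd74, whereas Zbtb46, Xcr1 and Clec9a were not in every genotype. Itgax, the CD11c integrin chain, had 117 and 330.1 in WT, 64.7 and 0 in KO replicate 1, 359.8 and 299.8 in KO replicate 2, 242 and 1268 in Il4-/-, and 328 and 232 in Il4-/-KO. It was highest in the same library as the macrophage members, which can also express it. Flt3, the growth factor receptor of dendritic cell precursors, had 68.3 in Il4-/- replicate 2, 62.4 in Il4-/-KO replicate 1, 31.5 in the first library of KO replicate 2 and 9.24 in WT replicate 2. It was at 1 read (1.47) in the first library of KO replicate 1 and at 0 in the other 5. Clec9a, a receptor for dead cells on cross-presenting dendritic cells, had 26.7 and 10.95 in Il4-/-, 35.6 in Il4-/-KO replicate 1 and 6.60 in WT replicate 2, and was at 0 in the other 6, which include all 4 KO libraries. Zbtb46, a transcription factor of classical dendritic cells, had 225 and 220.5 in WT, 688 and 1145 in KO replicate 1, 351 and 201 in KO replicate 2, 104 and 298 in Il4-/-, and 242 and 149 in Il4-/-KO. It was high in KO replicate 1, the replicate in which Itgax was lowest. Xcr1, the chemokine receptor of cross-presenting dendritic cells, had 125 and 310.3 in WT, 397 and 176 in KO replicate 1, 201 and 132 in KO replicate 2, 331 and 148 in Il4-/-, and 236 and 225 in Il4-/-KO. In the library with the most Cd74, Xcr1 was at 148.

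Per kilobase of exon, which allows genes to be set side by side, Cd74 had the highest median level over libraries (7004 normalized counts per kilobase), followed by Ctss (3610.4), Apoe (2374), Cd14 (2047), Lyz2 (1968) and H2-Ab1 (1364). Ciita (12.7), Trem2 (11.2), Flt3 (0.119), Mrc1 and Clec9a (both 0) were at the other end. Against Cd3e of the same library, Lyz2 stood at a per-kilobase ratio of 6.44 in Il4-/- replicate 2 and 0.141 to 0.787 elsewhere. For H2-Ab1 that ratio was 2.02 in the same library and 0.0753 to 0.766 elsewhere. Per kilobase, 8 members exceeded Cd3e in Il4-/- replicate 2 (Lyz2, C1qb, Apoe, Ctss, Cd14, Cd74, H2-Ab1 and H2-Eb1). In other libraries Cd74 did so in WT replicate 2, Il4-/-KO replicate 1 and both libraries of KO replicate 2, Ctss in both WT libraries and Il4-/-KO replicate 1, and Cd14 in WT replicate 1. The length used was the union of annotated exons, 4080 bases for Cd3e against 1088 for C1qb and 1358 for Ctss. Such a union can overstate the length of genes with rare long isoforms. In counts not divided by length, C1qb, Ctss and H2-Eb1 lay below Cd3e in Il4-/- replicate 2, and the others named for that library lay above it.

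**Figure D3:**
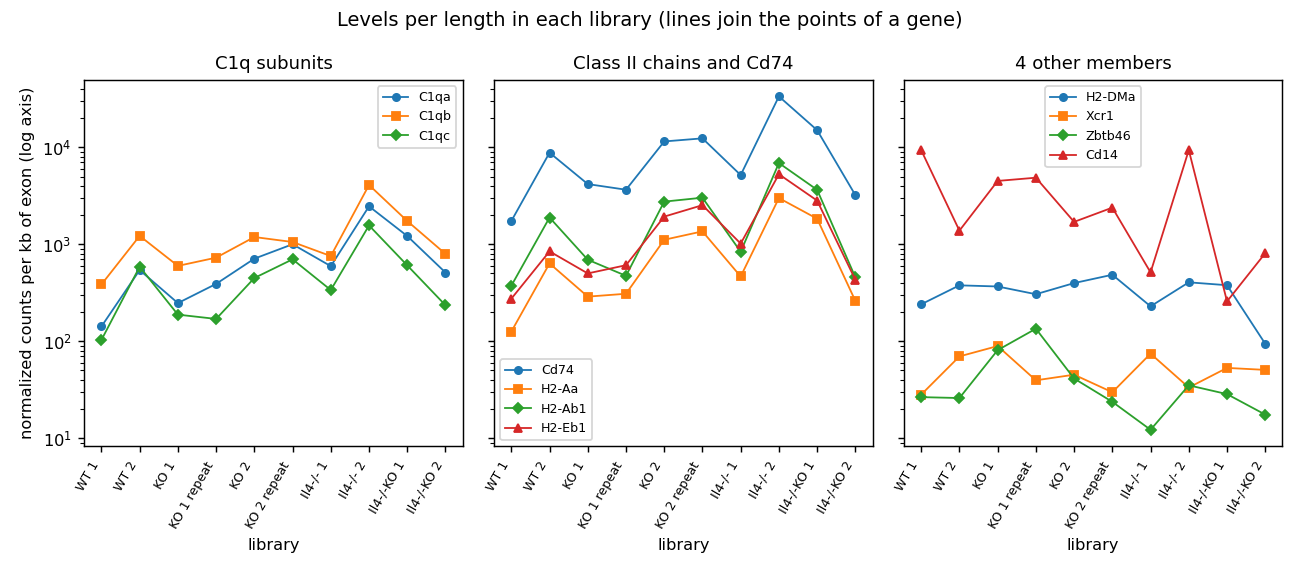
Normalized counts per kilobase of exon (log axis) in each of the 10 libraries for the C1q genes, for Cd74 and the class II chains, and for H2-DMa, Xcr1, Zbtb46 and Cd14; lines only join the points of a gene. The lines of the first 2 panels run roughly parallel and peak at Il4-/- replicate 2, while of the last 4 genes only Cd14 has its highest point there, level with WT replicate 1.

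Ratios between partner genes varied less than the genes themselves. Cd74 to H2-Ab1, per kilobase, ran from 4.10 to 7.74 over the 10 libraries, and H2-Aa to H2-Ab1 from 0.336 to 0.653, while H2-Ab1 itself spanned 18.5-fold. C1qa to C1qb ran from 0.368 to 0.948 and C1qc to C1qb from 0.233 to 0.663, while C1qb spanned 10.6-fold. H2-Eb1 to H2-Ab1 ran from 0.448 to 1.29. The adaptor pair was looser, with Fcer1g to Tyrobp from 0.573 to 2.88, or 5.03-fold. By contrast, H2-DMa to H2-Ab1 ran from 0.0588 in Il4-/- replicate 2 to 0.646, and Xcr1 to H2-Ab1 from 0.00482 in that library to 0.129. These ratios describe 10 libraries of 8 replicates and were not tested.

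The members varied more between replicates than the median gene, though not in every genotype by much. The SD of log2 values over the 8 replicates had a median of 1.42 for macrophage members and 1.49 for class II and dendritic members, against 0.73 for all genes tested. Among members it was lowest for Xcr1 (0.51) and Ctss (0.67) and highest for Itgam (3.14) and Mrc1 (3.76). In WT, replicate 2 was above replicate 1 for 22 of 24 macrophage members (median difference 1.61 on the log2 scale) and 10 of 11 class II and dendritic members (1.62). In KO the medians were 0.48 and 1.86, with 15 of 24 and 8 of 11 above. In Il4-/- they were 2.78 and 2.38, with 24 of 24 and 9 of 11 above. In Il4-/-KO the order was the opposite, with 21 of 24 and 11 of 11 members lower in replicate 2 and medians of -1.21 and -2.44. Without regard to sign, the median differences of macrophage members, of class II and dendritic members and of all genes tested were 1.72, 1.62 and 0.84 in WT and 0.88, 1.86 and 0.73 in KO. They were 2.78, 2.38 and 0.55 in Il4-/-, and 1.24, 2.44 and 0.47 in Il4-/-KO. The macrophage members were nearest to the background in KO. Replicate numbers carry no order between genotypes, so these values show only how far apart the replicates were.

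The first comparison asked what deletion of Tgfbr2 in CD4 T cells does with Il4 present (KO against WT). With limma and Benjamini-Hochberg adjustment over 14473 genes, 0 of 35 members passed an adjusted p of 0.05, against 0.00691% of all genes tested (1 gene). At an unadjusted p under 0.05 there was 1 member, Trem2, against 13.1% of all genes. The edgeR quasi-likelihood test called 0 members and 0% of genes. DESeq2 called 1 member, Mrc1 (adjusted p = 0.0134), against 4.03% of genes, but Mrc1 had 1 read in KO and none in WT, so that call compares values under the limit of 3 reads. Trem2 had a log2 difference, KO minus WT, of -3.53 ± 1.34 (SE, limma adjusted p = 0.351). That size came with the zeros of the KO repeat libraries: the difference was -1.23 with the first KO libraries alone, and -1.43 with edgeR and -1.42 with DESeq2 on the reads of all libraries. Aif1 differed by -2.17 ± 0.99 (limma adjusted p = 0.396) and Ctss by -0.73 ± 0.46 (0.518). The 24 macrophage members had a median difference of 0.16, with 13 higher in KO, and the 11 class II and dendritic members one of 0.35, with 7 higher, beside -0.20 for all genes tested. Scaling to core T cell genes lowers every gene by the same amount in this comparison and put the list medians below 0, at -0.40 and -0.21, beside -0.77 for all genes. The list medians lay above that of all genes, an order that such a common shift cannot change. Without WT replicate 1 the list medians were -0.76 and -0.50, and without WT replicate 2 they were 0.90 and 1.11. Ctss was the 1 member lower in every KO library than in every WT library, against 12.5% of all genes, and 0 members were higher without overlap, against 10%. With the first KO libraries alone, 3 members were higher without overlap (Fcgr1, Fcgr2b and Zbtb46), against 16.6% of all genes. With the repeats alone 6 were lower (Adgre1, Ctss, Fcer1g, Aif1, Ms4a7 and Trem2), against 23.6%.

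Deletion of Tgfbr2 was also compared without Il4 (Il4-/-KO against Il4-/-). Again 0 of 35 members passed the limma test, against 0% of all genes, and 0 members had an unadjusted p under 0.05, against 3.19%. Neither edgeR (0% of genes) nor DESeq2 (0.359%) called a member. The smallest p-values belonged to Ctss at -0.99 ± 0.46, Cd68 at -1.43 ± 0.78 and Apoe at -1.62 ± 0.90 (log2 difference ± SE, each with a limma adjusted p of 1). The median was -0.97 for macrophage members, with 2 of 24 higher in Il4-/-KO, and -0.81 for class II and dendritic members, with 2 of 11 higher, beside -0.03 for all genes. Those signs rested on 1 library: without Il4-/- replicate 2 the medians were 0.41 and 0.43, and without Il4-/- replicate 1 they were -2.29 and -2.20. The class II and dendritic median also turned with the Il4-/-KO replicates, at -2.04 without replicate 1 and 0.42 without replicate 2. Apoe, Ctss and Trem2 were lower in both Il4-/-KO libraries than in both Il4-/- libraries, 3 members against a background of 16.2%, and 0 were higher, against 16.8%.

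Loss of Il4 was compared among Tgfbr2-deleted cells (Il4-/-KO against KO). None of the 35 members (0) passed the limma test, against 0% of all genes. At an unadjusted p under 0.05 there were 2, Aif1 and Trem2, both higher, against 12.5% of genes in either direction. edgeR called 0 members (0% of genes), as did DESeq2 (2.77%). With the first KO libraries alone DESeq2 called Mrc1 (adjusted p = 2.52e-05), against 3.64% of genes. That call rested on Il4-/-KO replicate 1, since Mrc1 was at 0 in Il4-/-KO replicate 2 and in both first KO libraries. Aif1 differed by 2.71 ± 0.99 (limma adjusted p = 0.343), Trem2 by 3.35 ± 1.34 (0.373) and Cybb by 2.83 ± 1.26 (0.412). The Trem2 difference rested on the KO repeat libraries: on the reads of the first KO libraries alone it was -0.051 with edgeR. The median was 0.56 for macrophage members, with 18 of 24 higher in Il4-/-KO, and 0.15 for class II and dendritic members, with 8 of 11 higher, beside 0.05 for all genes. The class II and dendritic median ran from -1.22 without Il4-/-KO replicate 1 to 1.504 without Il4-/-KO replicate 2, and it was -0.78 without KO replicate 1 and 1.17 without KO replicate 2. The macrophage median was -0.16 without Il4-/-KO replicate 1. Without overlap, 4 members were higher in Il4-/-KO (Fcgr2b, Aif1, Ms4a7 and Cybb), against 16.2% of all genes, and 1 was lower (Cd14), against 12.4%.

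**Figure D4:**
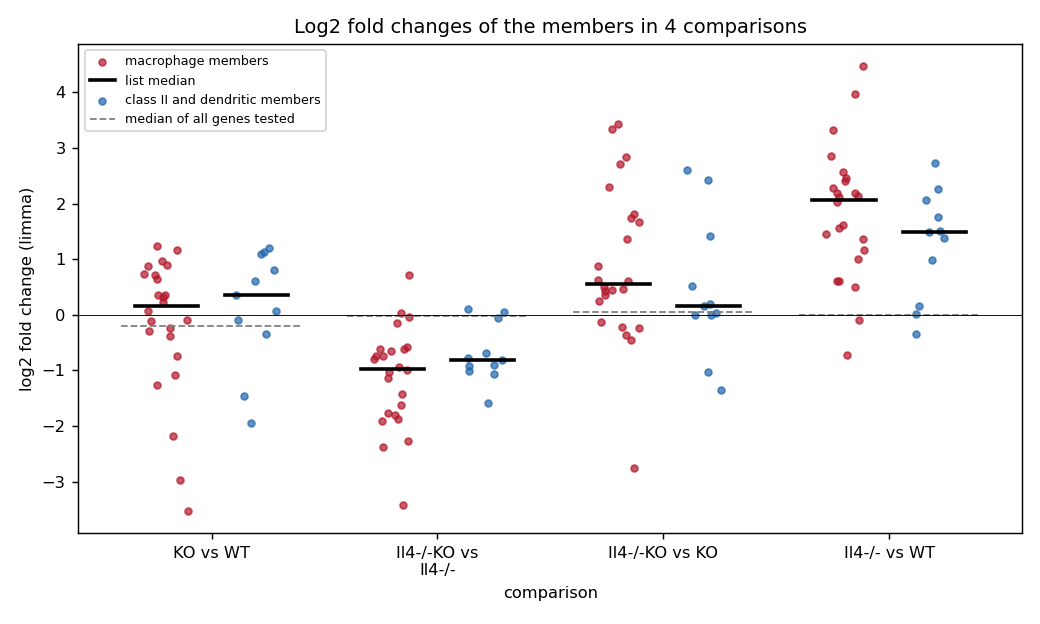
Log2 fold changes of the 35 members in the 4 comparisons between genotypes, from limma on log2(normalized count + 1), 1 point per member, with the median of each list (black bars) and of all genes tested (dashed lines). The Il4-/- against WT medians are 2.07 and 1.49, the Il4-/-KO against Il4-/- medians -0.97 and -0.81, and no member passes the adjusted threshold.

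Loss of Il4 with Tgfbr2 intact (Il4-/- against WT) gave the largest medians. Here too 0 of 35 members passed the limma test, against 0% of genes, and 2 had an unadjusted p under 0.05, Cybb and Fcgr2b, both higher, against 3.88%. edgeR called 0 (0% of genes), and DESeq2 called 1, Mrc1 (adjusted p = 6.92e-08), against 0.200% of genes. Mrc1 was at 0 in both WT libraries and in Il4-/- replicate 1, so that call rested on Il4-/- replicate 2. Cybb differed by 3.33 ± 1.26, Fcgr2b by 2.47 ± 1.02 and C1qa by 2.12 ± 0.93 (log2 difference ± SE, each with a limma adjusted p of 1). The median was 2.07 for macrophage members, with 22 of 24 higher in Il4-/-, and 1.49 for class II and dendritic members, with 10 of 11 higher, beside 0.01 for all genes. Without Il4-/- replicate 2 the medians were 0.43 and 0.30. The class II and dendritic median was 0.58 without WT replicate 1, 2.69 without WT replicate 2 and 2.68 without Il4-/- replicate 1. In both Il4-/- libraries, 9 members lay above both WT libraries (Csf1r, C1qa, Ctss, Fcgr1, Fcgr2b, Ms4a6c, Cybb, H2-Eb1 and Clec9a), or 25.7%, against 14.7% of all genes, and 0 lay below, against 14.6%. Of these members, Clec9a reached 10 normalized counts only in libraries without Il4, so it passed the filter only through libraries in which it was high. Genotype and depth cannot be told apart here, since both WT libraries were in the shallower set and both Il4-/- libraries in the deeper.

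The interaction asked whether the Tgfbr2 deletion acts differently with and without Il4. It was past the limma threshold for 0 of 35 members and 0% of all genes, with 0 members at an unadjusted p under 0.05, against 3.77%. edgeR (0% of genes) and DESeq2 (0.252%) called no member. The smallest p-values belonged to Aif1 at 2.20 ± 1.40, Csf1r at -3.10 ± 2.01 and Sirpa at -2.64 ± 1.80 (log2 ± SE, each with a limma adjusted p of 0.967). The medians were -1.04 for macrophage members and -1.01 for class II and dendritic members, beside 0.12 for all genes. Without Il4-/- replicate 2 the macrophage median was 0.27, and without Il4-/- replicate 1 it was -2.30 and the class II and dendritic median -2.06. The latter ran from -2.72 without Il4-/-KO replicate 1 to -0.012 without Il4-/-KO replicate 2. The comparisons above share samples, so their medians are not separate pieces of evidence.

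The first and repeat libraries of each KO replicate, made from 1 RNA, were also compared. The repeat of KO replicate 1 differed from its first library by a median of 0.34 (absolute log2) over the 35 members, against 0.42 over all genes tested, and that of KO replicate 2 by 0.64 against 0.79. Of the 31 members with at least 10 normalized counts in the first library of KO replicate 1, 3 had at most 3 reads in the repeat (Adgre1, Fcgr1 and Itgax), or 9.68% against 7.98% of all genes. In KO replicate 2 these were 4 of 33 (Adgre1, Itgam, Trem2 and Flt3), or 12.1%, as over all genes. The genes affected had at most 229 normalized counts in the first library. Other members at such levels kept their reads, such as Cybb (205 and 175) and Xcr1 (201 and 132) in KO replicate 2. Cd74, H2-Aa and H2-Ab1 stayed near the diagonal. The repeats were the deeper libraries but detected fewer genes, 12891 against 14131 for KO replicate 1 and 12459 against 14421 for KO replicate 2. What led to their zeros was not tested.

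**Figure D5:**
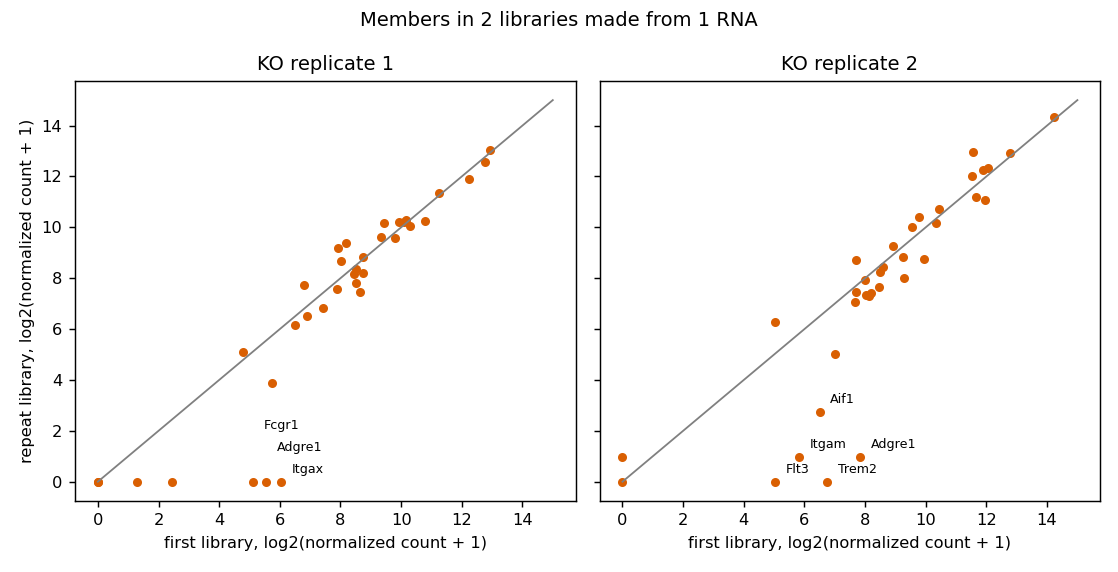
Log2(normalized count + 1) of each member in the first (x axis) and repeat (y axis) library of KO replicate 1 (left) and KO replicate 2 (right), with the line of equality. Members far below the line had reads in the first library and few or none in the repeat, among them Adgre1 in both panels.

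Other genes of these cells and pathways were grouped in lists, some of which share genes, and the adjusted limma test was passed by 0 genes of any list in any comparison. At an unadjusted p under 0.05, KO against WT, 13.1% of all genes were called, and there were 1 higher and 1 lower of 22 other macrophage and monocyte genes tested, 2 higher and 1 lower of 12 genes that macrophages raise in response to IL-4, and 3 higher of 12 inflammatory macrophage genes. Of 14 other class II pathway genes 1 was lower, and of 18 other dendritic cell genes 3 were lower. edgeR called 0 in each of these lists. DESeq2 called 2, 3, 3, 0 and 3, against 4.03% of all genes. The IL-4 response list also holds the member Mrc1, which is 1 of its 3 DESeq2 calls and compares values under the limit of 3 reads. Ly6c2, a monocyte surface antigen that activated T cells also express, had the smallest p of the other macrophage genes, at 2.24 ± 0.52 in KO against WT (limma adjusted p = 0.306). Its 4 KO libraries (5079 to 13267) all lay above WT (1345 and 2056), an order unlike that of any macrophage member. Tcf4, a transcription factor of plasmacytoid dendritic cells, differed by -4.69 ± 0.77 (0.218), with 452 and 194 in WT and 0 to 181 in KO. Egr2, which both macrophages and T cells express, differed by -2.04 ± 0.57 (0.311), with 5116 and 4878 in WT and 640.3 to 1929 in KO. H2-Ob, which dampens peptide editing on class II, differed by -3.28 ± 1.41 (0.380). Ptgs2, an inflammatory enzyme gene, had the smallest p of its list in Il4-/-KO against Il4-/-, at -2.86 ± 0.78 (limma adjusted p of 1).

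In Il4-/- against WT, 2 of the 22 other macrophage genes and 1 of the 12 inflammatory genes were higher at an unadjusted p under 0.05, and 1 of the 12 IL-4 response genes was lower, against 3.88% of all genes in either direction. The list medians in that comparison were 1.12 for other macrophage and monocyte genes, 0.87 for IL-4 response genes, 1.13 for inflammatory genes, 0.53 for other class II genes and 0.68 for other dendritic cell genes, against 2.07 for the macrophage members. Ctsd, a lysosomal protease and the highest of its list, had 22309.5 to 43045 in all libraries, and Ccr7, the highest of the dendritic list, which T cells also express, 2026 to 14949. Of the remaining lists, Il4ra, the IL-4 receptor chain that T cells share, ran from 5096 to 14847, Il1b from 439.6 to 14469.6, with its highest value in Il4-/- replicate 2, and Ctsl, another class II pathway protease, from 279 to 6207, highest in WT replicate 1. Cx3cr1, the fractalkine receptor, had 121 and 169 in WT, 199.9 and 342 in KO replicate 1, 408 and 794 in KO replicate 2, 498 and 2794 in Il4-/-, and 1985 and 5172 in Il4-/-KO. Like Cybb and Fcgr2b, it was higher in both Il4-/- libraries than in WT and in both Il4-/-KO libraries than in KO, with differences of 3.03 ± 0.86 (limma adjusted p of 1) and 3.05 ± 0.86 (0.288). DESeq2 called Cx3cr1 in both (adjusted p = 0.012 and 0.0193), and edgeR in neither (1 and 0.464). In the single comparisons 14.7% and 16.2% of all genes were higher without overlap, and the share higher in both was not counted. Those 2 comparisons do not share a library, but in each the Il4-/- side was sequenced more deeply than WT and the first KO libraries.

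Among lists of other cell types, the gene with the smallest p over the comparisons was Cd4 for T cells (1.23 ± 0.37 in KO against WT, limma adjusted p = 0.317), Pecam1 for stroma and vessels (0.88 ± 0.27, 0.317) and Cdh1 for epithelium (-2.18 ± 0.48 in Il4-/-KO against Il4-/-, adjusted p of 1). For B and plasma cells it was Jchain (4.38 ± 1.40 in the same comparison, adjusted p of 1), and for NK and CD8 T cells Cd8a (-7.68 ± 1.23 in Il4-/- against WT, limma adjusted p = 0.862). For neutrophils it was Retnlg (-6.86 ± 1.55, 0.256) and for mast cells and eosinophils Cma1 (5.30 ± 1.66, 0.304), both in Il4-/-KO against KO by limma. The most abundant gene of each list was Lck for T cells (16899 to 49604), Krt18 for epithelium (2981 to 55536) and Ltf for the neutrophil list (86.9 to 40465). Krt18, Ltf and Kit, the most abundant of the mast cell list (249 to 9068), all had their highest value in WT replicate 1. Jchain (14.8 to 2735), Klrk1 (217 to 4752) and Pecam1 (1189.5 to 2522) were the most abundant of the others.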

How the data were processed

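The deposited table gave 1 signal per gene and library, for 10 libraries of CD4+CD25- T cells. Per the labels' protocols, RNA was amplified with SMART-Seq v4, which has no molecular identifiers, and libraries were made with KAPA Hyper Prep. Per the submitters' processing notes, bcl2fastq 2.18.0, STAR and DESeq2 were used with build mm10. The counter, annotation and strand setting are not given in the sources used here. Each deposited signal value proved to be a number of reads scaled by its library's size factor: 100% of values were whole multiples of 1 read within 0.001 reads, which recovered 17121030 to 33802781 reads per library. Of 17370 rows, 7 had no name (0.0029% to 0.0205% of each library) and were left out.

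What follows was computed here. limma 3.58.1 (R 4.3.3) with a variance trend tested log2(normalized count + 1) for 14473 genes, those that reached 10 normalized counts in 2 or more of 8 replicates. Tests were two-sided, adjusted by Benjamini-Hochberg, with a threshold of 0.05. Fold changes are on this log2(value + 1) scale, which limits the change of low genes but gives a library at 0 much weight. For limma the KO libraries were averaged per replicate, and all genotypes shared 1 fit with 4 residual degrees of freedom. edgeR 4.0.16 and DESeq2 1.42.0 were run on recovered reads, with the first and repeat reads of each KO replicate summed. Scripts were tested on simulated data. With the dispersions of these data, limma for KO against WT called 0 of 50 genes changed by 1 on the log2 scale. It called 4 of 50 changed by 2, 33 of 50 changed by 4 and 43 of 50 changed by 6. A call of 0 members therefore does not show that the members were unchanged. Exonic lengths were unions of the exons of a GENCODE annotation of mm10, and promoters came from RefSeq for the 25 members with an entry. Figures used matplotlib 3.10.9. The members and lists were chosen with earlier results of these data known. Per-library values were given for all members; named were those past the test, those without overlap between groups, the 3 with the smallest p per comparison, and for each other list the gene with the smallest p and the highest mean; Cx3cr1 was named after its values were seen. Some genes of the other lists are not reported here. Alternatives covered the pseudocount, filter, scaling, variance trend, genotypes in the fit, KO libraries, a replicate block and each replicate left out.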

Additional observations from a re-analysis of the deposited data

How the results depend on the processing

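No member passed the limma threshold in any comparison under the limma settings run, and edgeR called 0 in all of them. DESeq2 on recovered reads called 1 member (Mrc1) in KO against WT and 1 in Il4-/- against WT. With the first KO libraries alone, an alternative chosen after seeing the data, it called 1 in Il4-/-KO against KO (3.64% of all genes) and 1 in Il4-/- against WT (0.448%). The medians over members moved most when 1 replicate was left out. For Il4-/-KO against Il4-/- they ran from -2.29 to 0.41 (macrophage) and from -2.20 to 0.43 (class II and dendritic). For Il4-/-KO against KO the class II and dendritic median ran from -1.22 to 1.504. For Il4-/- against WT the ranges were 0.43 to 3.05 and 0.30 to 2.69, and for the interaction -2.30 to 0.27 and -2.72 to -0.012. For KO against WT they were -0.76 to 0.90 and -0.50 to 1.11, around medians of 0.16 and 0.35, so both turned negative without WT replicate 1. The SD between replicate medians, pooled over genotypes, was 1.22 and 0.89. With 2 replicates per genotype it cannot tell whether such moves are small. Trem2 in Il4-/-KO against KO turned to -0.051 with edgeR and -0.042 with DESeq2 on the first KO libraries. Scaling to core T cell genes shifted the median of all genes from -0.20 to -0.77 in KO against WT, from -0.03 to -0.29 in Il4-/-KO against Il4-/-, from 0.05 to 0.30 in Il4-/-KO against KO and from 0.12 to 0.41 in the interaction. Deviations of same-numbered replicates correlated at -0.36 to 0.24 between genotypes, so the numbers were not taken as pairs. With a replicate block, 0 members passed in each comparison. The block cannot move the medians (0.16 and 0.35 in KO against WT), because each genotype has 1 replicate of each number. Depth limits low members: a value of 0 allowed up to 3 reads, and Mrc1, Flt3 and Clec9a were at or under that in 8, 6 and 6 libraries. The cause of these movements was not tested.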
